A study of Mus musculus with 9 samples.

Results

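The chemokines, chemokine receptors and integrin chain that guide lymphocytes to and within the gut were examined as a set of 7 genes on a mouse immunology panel of 547 endogenous and 14 housekeeping genes. They were chosen by gene name. The set holds the ligand Ccl20 with its receptor Ccr6, the ligand Ccl25 with its receptor Ccr9, the receptors Ccr10 and Cxcr6, and the integrin chain Itga4. The RNA was that of ileal epithelial cells taken at postnatal day 23 from male mice of the NOD strain, in which autoimmune diabetes arises without induction. There were 9 libraries, 3 in each group, namely mice labelled control with no further treatment named, mice labelled as given 1PAT antibiotics, and mice labelled as given a transfer of cecal material. The labels name neither the antibiotic, its dose or its timing nor whether the transfer mice had antibiotics first, although by its title the study treats the transfer as rescuing an antibiotic effect. Nor do they state that replicates were different mice, so each p-value reflects only the variation among these 9 libraries, which may be technical.

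Chemokines are small secreted proteins that attract cells bearing the matching receptor. CCL25 is made by the epithelium of the small intestine and attracts lymphocytes that carry CCR9, a receptor imprinted on gut-homing T cells. CCL20 is made by epithelium over lymphoid follicles and at inflamed surfaces, where it draws CCR6-bearing B cells, dendritic cells and innate lymphoid cells. CCR10 is carried by IgA plasma cells and CXCR6 by tissue-resident T and innate lymphoid cells. The integrin alpha4 chain encoded by Itga4 pairs with beta7 or beta1 and binds MAdCAM-1 or VCAM-1 on vessel walls.

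The assay, nCounter, counts single transcripts captured by a probe pair, without amplification. Levels are given as CPM, counts scaled to a common library total, after TMM scaling, a scaling that assumes most genes do not differ, and levels of different genes are not set against each other because probes differ in efficiency. Total counts over the panel genes ran from 323129 to 747434, and 470 genes exceeded the background limit, the mean plus 2 SD of the negative-control probes of a library, in at least 3 libraries. All 7 members were among the 470. The limit was exceeded in all 9 libraries by 6 of them, while Ccr10 did so in 6 libraries, 2 of each group. On the first principal component, control replicate 3 lay at -27.5 and the remaining 8 libraries lay between -7.26 and 11.7. Epithelial markers were abundant, with Pigr, the antibody transporter of mucosal epithelium, at 29168 CPM or more in every library, but lymphocyte markers were present as well. The summed level of 12 T cell markers was 12189 CPM in control replicate 3 and 44846 to 93512 CPM in the other 8 libraries. By group it ran from 12189 to 52623 CPM in control, 59943 to 66395 CPM in antibiotic and 52920 to 93512 CPM in transfer libraries. Every control library thus lay below every treated library, although control replicate 1 and transfer replicate 2 lay close together. Less RNA from a cell type and fewer cells of it cannot be told apart in such bulk samples.

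Upstream sequences are shown for 4 members, Ccl20 because it is the ligand with the largest difference between groups, Ccr9 and Cxcr6 because their levels were closely correlated, and Itga4 because it had the largest difference of the set. Each runs over the 250 bases before the annotated start of the gene, from RefSeq on GRCm38.p6. Capitals mark matches to the kappaB consensus motif bound by NF-kB or to the RUNX core TGTGGT. These and TATAAA were searched on both strands.
Ccl20 (chr1:83116516-83116765, plus strand): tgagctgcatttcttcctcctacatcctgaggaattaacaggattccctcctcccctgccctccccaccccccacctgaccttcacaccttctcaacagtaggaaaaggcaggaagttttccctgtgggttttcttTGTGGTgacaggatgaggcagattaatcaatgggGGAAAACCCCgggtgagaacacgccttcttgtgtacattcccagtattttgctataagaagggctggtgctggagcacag
Ccr9 (chr9:123766961-123767210, plus strand): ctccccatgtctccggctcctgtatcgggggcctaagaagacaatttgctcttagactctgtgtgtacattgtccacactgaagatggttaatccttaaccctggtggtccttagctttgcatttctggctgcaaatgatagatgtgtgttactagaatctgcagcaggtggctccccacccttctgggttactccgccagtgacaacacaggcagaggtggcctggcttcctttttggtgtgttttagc
Cxcr6 (chr9:123806227-123806476, plus strand): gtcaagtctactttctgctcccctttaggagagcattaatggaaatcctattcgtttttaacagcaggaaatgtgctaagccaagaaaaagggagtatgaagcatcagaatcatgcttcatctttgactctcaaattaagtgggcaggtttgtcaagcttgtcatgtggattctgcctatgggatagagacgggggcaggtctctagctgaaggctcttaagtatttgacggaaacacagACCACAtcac
Itga4 (chr2:79255176-79255425, plus strand): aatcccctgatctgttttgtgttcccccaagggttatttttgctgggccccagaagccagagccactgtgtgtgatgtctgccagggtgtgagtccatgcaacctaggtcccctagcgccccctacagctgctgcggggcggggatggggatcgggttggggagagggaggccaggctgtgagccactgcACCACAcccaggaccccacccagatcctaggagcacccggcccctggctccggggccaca

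A match to the kappaB consensus lay 80 to 71 bases before the start of Ccl20 and a RUNX core 114 to 109 bases before it. Of 32851 annotated mouse promoters of the same length, 7.25% held the kappaB consensus, 14% the RUNX core and 12.4% TATAAA. A RUNX core on the reverse strand lay 10 to 5 bases before the start of Cxcr6 and 60 to 55 bases before that of Itga4. In Ccr9 none of the 3 was found in this window, and the marked matches did not overlap each other. Of the members not printed, Ccr6 held 2 overlapping kappaB matches between 81 and 71 bases before 1 of its starts, and Ccl25 held TATAAA 16 to 11 bases before 1 of its starts. Ccr9 and Cxcr6 are neighbours on chromosome 9, at chr9:123767211-123783457 and chr9:123806477-123811754, separated by 23019 bases, and Cxcr6 lies within the span of Fyco1.

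**Figure D1:**
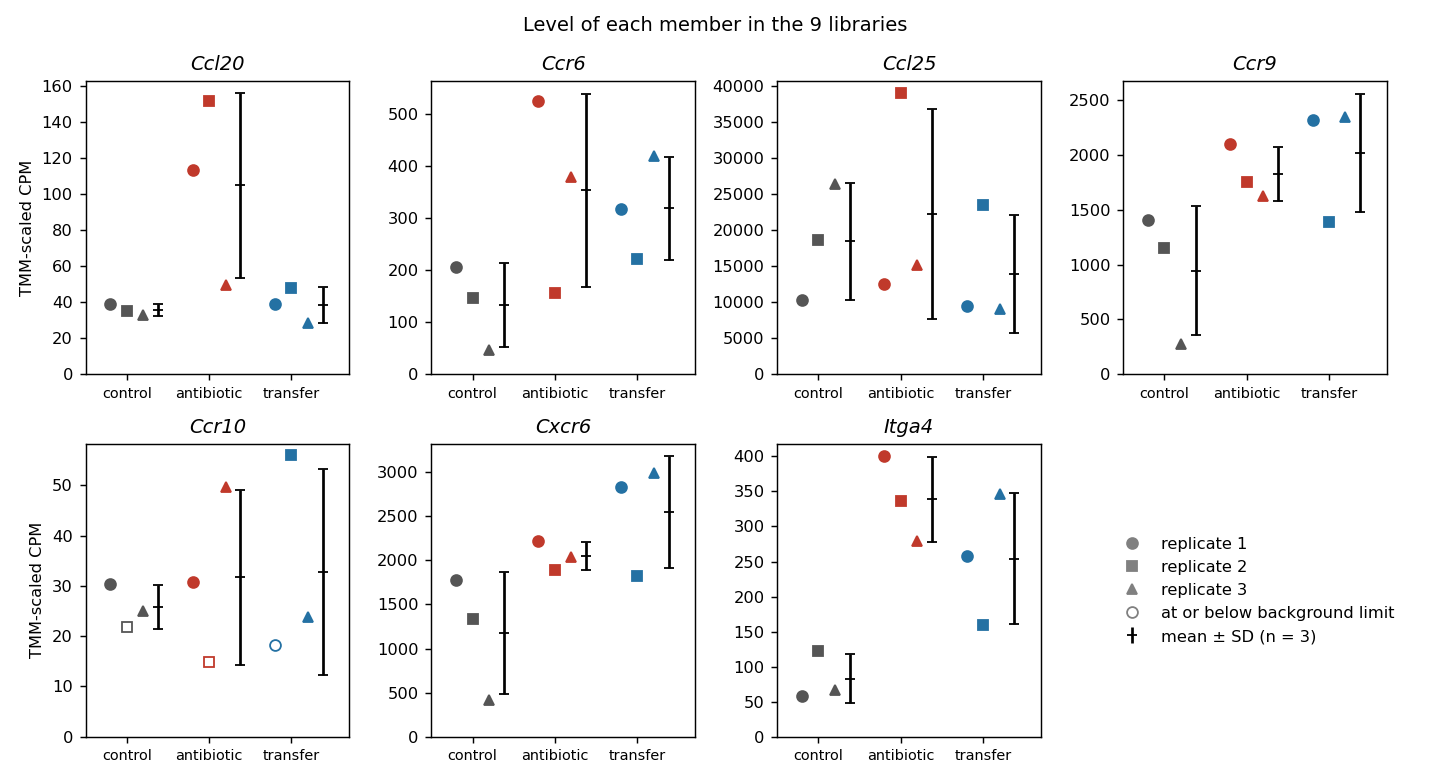
TMM-scaled CPM (vertical axis, from 0) of the 7 members in the 3 control, 3 antibiotic and 3 transfer libraries, with the mean and SD of each group beside the points and open symbols at or below the background limit. Ccl20 reaches 114 and 152 CPM in 2 antibiotic libraries and stays under 50 in the other 7, and Itga4 is lowest in the 3 control libraries.

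Ccl20, the epithelial ligand of CCR6, had its highest levels in the antibiotic group. It measured 39.1, 35.2 and 32.7 CPM in control replicates 1, 2 and 3, then 114, 152 and 49.6 CPM in the antibiotic replicates and 39, 48.1 and 28.4 CPM in the transfer replicates. All 3 antibiotic libraries lay above all 6 others, while control and transfer libraries overlapped. The group means were 35.7 ± 3.22 CPM in control, 105 ± 51.6 CPM in antibiotic and 38.5 ± 9.86 CPM in transfer libraries (SD, n = 3). Antibiotic replicate 3 set the lower end of its group, and its 49.6 CPM rested on 36 counts, the same number as the 48.1 CPM of transfer replicate 2. The counts of Ccl20 were small throughout, from 15 to 59, or 1.09 to 4.9 times the background limit.

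For antibiotic against control the log2 fold change of Ccl20 was 1.53 ± 0.51 (SE), a 2.89-fold difference that did not pass adjustment over the 470 genes (edgeR quasi-likelihood adjusted p = 0.116). DESeq2 called it, with an adjusted p of 0.0453, and over all alternatives the adjusted p ran up to 0.535. For transfer against antibiotic it was -1.42 ± 0.51, the sixth smallest p of the panel, without passing (edgeR adjusted p = 0.993), and for transfer against control it was 0.11 ± 0.51 (edgeR adjusted p = 0.898), with a 95% interval from -0.998 to 1.22. Each pair of these comparisons shares the libraries of 1 group, so they are not independent of each other. Scaling to the synthetic spike-in probes turned the antibiotic against control value to -0.80 and the transfer against antibiotic value to 0.96.

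Ccl25, the small-intestinal ligand of CCR9, lay far above background in every library and did not order the groups. It measured 10270.5, 18628 and 26426 CPM in the control replicates, 12547, 39082 and 15167 CPM in the antibiotic replicates and 9413, 23456 and 9025 CPM in the transfer replicates. All 3 groups overlapped, and the highest library, antibiotic replicate 2, had the smallest total count. Its log2 fold change was 0.27 ± 0.50 for antibiotic against control, -0.40 ± 0.50 for transfer against control and -0.67 ± 0.51 for transfer against antibiotic (SE), with edgeR adjusted p-values of 0.771, 0.626 and 0.993. The 95% interval of the last of these reached from -1.76 to 0.42, so differences within it were not resolved. Without antibiotic replicate 2, the transfer against antibiotic value was 0.01, and the antibiotic against control value was -0.41.

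Ccr9, the receptor for CCL25, had higher mean levels in both treated groups than in control, without passing the test. Its levels were 1407, 1148 and 279 CPM in the control replicates, 2100.4, 1757 and 1629.7 CPM in the antibiotic replicates, and 2321, 1392 and 2345 CPM in the transfer replicates. Every antibiotic library exceeded every control library, and 2 of the 3 transfer libraries did so, with transfer replicate 2 just under control replicate 1. The log2 fold change was 0.95 ± 0.48 for antibiotic against control (edgeR adjusted p = 0.256) and 1.10 ± 0.48 for transfer against control (edgeR adjusted p = 0.214). Control replicate 3 carried much of both values, which were 0.47 and 0.62 without it. Transfer and antibiotic libraries differed by 0.14 ± 0.48 (log2, SE), with a 95% interval from -0.88 to 1.17.

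Cxcr6, a receptor of tissue-resident lymphocytes whose ligand CXCL16 can be membrane-bound, gave nearly the same picture. It measured 1781, 1332 and 421 CPM in the control replicates, 2216, 1894 and 2038 CPM in the antibiotic replicates, and 2833, 1826 and 2993 CPM in the transfer replicates. All 6 treated libraries exceeded all 3 control libraries, although control replicate 1 and transfer replicate 2 lay close together. With housekeeping scaling the groups overlapped in both comparisons against control. The log2 fold change was 0.80 ± 0.44 for antibiotic against control (edgeR adjusted p = 0.291) and 1.11 ± 0.44 for transfer against control (edgeR adjusted p = 0.208). Without control replicate 3 these were 0.35 and 0.68. For transfer against antibiotic it was 0.32 ± 0.44 (edgeR adjusted p = 0.993).

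Ccr6, the receptor for CCL20, spanned a range of 11.3 times over the libraries, the widest of the 7 members. It measured 206, 146 and 46.1 CPM in the control replicates, 524, 155 and 379 CPM in the antibiotic replicates, and 317, 220.2 and 418 CPM in the transfer replicates. All transfer libraries lay above all control libraries, whereas antibiotic replicate 2 fell between control replicates 1 and 2. The log2 fold change was 1.42 ± 0.56 for antibiotic against control (edgeR adjusted p = 0.17) and 1.26 ± 0.56 for transfer against control (edgeR adjusted p = 0.214), or 0.99 and 0.83 without control replicate 3. For transfer against antibiotic it was -0.15 ± 0.55 (edgeR adjusted p = 0.993).

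Ccr10, the receptor of IgA plasma cells, was measured close to background. Its counts ran from 4 to 42, and its levels were 30.4, 21.8 and 25 CPM in the control replicates, 30.8, 14.8 and 49.6 CPM in the antibiotic replicates, and 18.2, 56.1 and 23.9 CPM in the transfer replicates. Control replicate 2, antibiotic replicate 2 and transfer replicate 1 were under their limits. The groups overlapped fully, and the 3 fitted log2 fold changes lay between 0.02 and 0.38, with standard errors of 0.59 to 0.60. Their 95% intervals lay within -1.26 and 1.66, so differences inside that range were not resolved with 3 libraries a group.

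Itga4, the alpha4 integrin chain of gut-homing lymphocytes, had the largest difference of the set. It measured 58.6, 122 and 67.3 CPM in the control replicates, 400.4, 337 and 279 CPM in the antibiotic replicates, and 258, 159 and 346 CPM in the transfer replicates. All 6 treated libraries lay above all 3 control libraries, and the treated groups overlapped each other. The means were 82.8 ± 34.6 CPM in control, 339 ± 60.5 CPM in antibiotic and 254 ± 93.8 CPM in transfer libraries (SD, n = 3).

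For antibiotic against control, Itga4 had a log2 fold change of 2.02 ± 0.44 (SE), a 4.07-fold difference with the second smallest p of the panel (edgeR adjusted p = 0.0614). For transfer against control it had 1.61 ± 0.44, a 3.05-fold difference (edgeR adjusted p = 0.181). Both comparisons use the same control libraries. DESeq2 called both, with adjusted p-values of 0.00132 and 0.0195, and limma-voom called the first, with an adjusted p of 0.0464. Over all alternatives the adjusted p of Itga4 ran up to 0.985 for the first, with spike-in scaling. Unlike Ccr9 and Cxcr6, the values for Itga4 did not rest on control replicate 3, at 1.84 and 1.44 without it. Transfer and antibiotic libraries differed by -0.41 ± 0.42 (log2, SE; edgeR adjusted p = 0.993), with a 95% interval from -1.33 to 0.50. With spike-in scaling the antibiotic against control value of Itga4 was 0.03 and the transfer against control value 1.78.

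**Figure D2:**
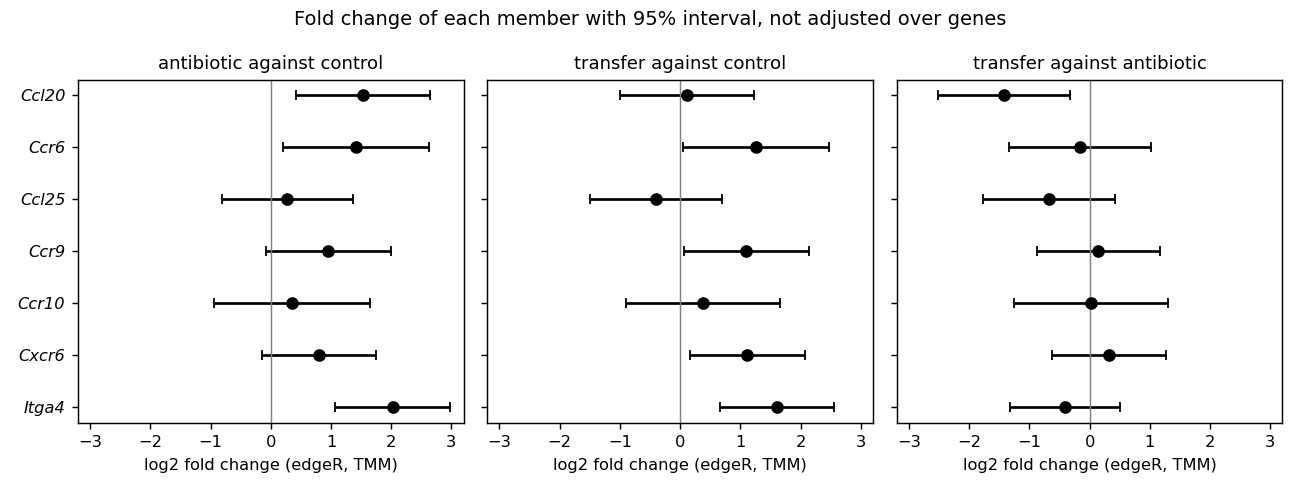
Log2 fold change (horizontal axis) of the 7 members in the 3 comparisons, from the edgeR fit with TMM scaling. Points are fitted values and bars are 95% intervals without adjustment over genes. Itga4 stands farthest from 0 in both comparisons against control, and Ccl20 farthest below 0 for transfer against antibiotic.

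None of the 7 members passed an adjusted p under 0.05 in any comparison by edgeR, where the share of all 470 genes called was 0% in each. At an unadjusted p under 0.05 for antibiotic against control, 3 members were counted (Ccl20, Ccr6 and Itga4) and all were higher. Of all genes 21.7% were counted, 14.3% higher and 7.45% lower. For transfer against control 4 members were counted (Ccr6, Ccr9, Cxcr6 and Itga4), all higher, and of all genes 22.3%, with 15.1% higher and 7.23% lower. For transfer against antibiotic 1 member, Ccl20, was counted, as lower, and of all genes 2.55%, with 1.28% in each direction.

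In antibiotic against control, 4 members (Ccl20, Ccr9, Cxcr6 and Itga4) were higher with no overlap between the groups. Of all genes 28.9% did not overlap, 18.1% higher and 10.9% lower. In transfer against control this held for 3 members (Ccr6, Cxcr6 and Itga4), all higher, and for 26.4% of all genes, 15.7% higher and 10.6% lower. In transfer against antibiotic it held for Ccl20 alone, as lower, and for 7.45% of all genes, 3.62% higher and 3.83% lower. In the comparisons against control the same members did not overlap when control replicate 3 was left out. Fitted values were above 0 in 7 of 7 members for antibiotic against control, where 50.9% of all genes were above 0, and in 6 of 7 for transfer against control, where 52.8% were. For transfer against antibiotic they were above 0 in 3 of 7 members, where 48.7% of all genes were.

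Of the wider chemokine receptor list, 15 of 18 genes were on the panel and 10 were kept. None passed in any comparison, 9 of 10 had a fitted value above 0 for antibiotic against control with a median log2 fold change of 0.94, and 10 of 10 did for transfer against control with a median of 0.93. The medians of all genes tested were 0.03 and 0.08. Ccr7, which directs lymphocytes to lymph nodes, measured 77.2 ± 45.2 CPM in control, 194 ± 23.2 CPM in antibiotic and 209 ± 75.5 CPM in transfer libraries (SD, n = 3). Cxcr5, the follicle-homing receptor, measured 22.2 ± 2.58, 88.5 ± 30.5 and 53.9 ± 15.7 CPM in the same order, with 2 of 3 control libraries above the limit. Ccrl2, an atypical receptor that does not signal migration, had means of 299 ± 126 CPM in control and 587 ± 176 CPM in transfer libraries. Cxcr2, a neutrophil receptor with the third smallest p of the list for antibiotic against control, was above the limit in 1 antibiotic and 0 control libraries, so no fold is given.

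The chemokine list was evenly divided around 0. Of 35 genes 25 were on the panel and 18 kept, with 9 above and 9 below 0 in each comparison against control, medians of 0.03 for antibiotic and 0.07 for transfer, and none passing. The 3 with the smallest p in both were Ccl4, Ccl5 and Xcl1, chemokines made by activated T and NK cells. Ccl4 measured 719.7 ± 339 CPM in control, 1600.3 ± 235 CPM in antibiotic and 2022 ± 714 CPM in transfer libraries, and Xcl1 measured 4936 ± 3130.2, 11453 ± 925 and 11906 ± 3161 CPM (SD, n = 3). Ccl5 had log2 fold changes of 1.07 ± 0.39 and 1.05 ± 0.39 (SE) for antibiotic and transfer against control.

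Among integrins and adhesion molecules, 20 of 28 genes were on the panel and 14 kept, with 0 passing. The median was 0.50 for antibiotic against control, with 10 of 14 above 0, and 0.55 for transfer against control, with 11 of 14. Of the partners of the members, Itgb1 and Vcam1 were measured. Cxcl16, Ccl27a, Ccl28, Itgb7, Madcam1 and Itgae were not found by name on the panel. Itgb1, the beta1 chain that pairs with alpha4 and with other alpha chains, measured 2739, 3247 and 4319 CPM in the control replicates, 2661, 2512 and 2136 CPM in the antibiotic replicates and 1764, 2751 and 2319.7 CPM in the transfer replicates. Its fitted value lay opposite to that of Itga4, at -0.50 ± 0.31 and -0.59 ± 0.31 (log2, SE) against control, without passing (edgeR adjusted p = 0.355 and 0.241). Vcam1, an endothelial ligand of alpha4 integrins, exceeded the limit in 4 of 9 libraries.

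Gpr183, which guides lymphocytes along oxysterol gradients, measured 122 ± 68.4 CPM in control, 515 ± 77.5 CPM in antibiotic and 387 ± 67.2 CPM in transfer libraries. Itgam, an integrin chain of myeloid cells, lay the other way, with a mean of 389.7 ± 70.5 CPM in control and 198 ± 23.6 CPM in transfer libraries (SD, n = 3). Neither of these genes passed in edgeR.

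Levels of the receptors were then set against the T cell markers of the same library, a ratio in which any scaling between libraries cancels. Per 1000 CPM of the 12 summed T cell markers, Cxcr6 measured 33.8, 29.7 and 34.5 CPM in the control replicates, 33.4, 31.6 and 32 CPM in the antibiotic replicates, and 33, 34.5 and 32 CPM in the transfer replicates. Its highest and lowest ratios differed by 1.16 times, while its level differed by 7.11 times and the summed markers by 7.67 times. This was the narrowest range of 458 kept genes outside the marker list, whose median range was 10.8 times. The 458 include genes with few counts, such as Ccr10 with 4 to 42, and few counts alone can widen a range. Cxcr6 had 219 to 2005 counts. Ranks were taken for this marker sum only. Ccr9 ranked 4 of 458, with ratios from 22.9 to 31.6 CPM, a range of 1.38 times against 8.41 times for its level. Control replicate 3, lowest in both receptors, had ratios of 34.5 for Cxcr6 and 22.9 for Ccr9, so its Cxcr6 per T cell marker was at the level of the other libraries.

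Cd7 contributed most to that sum, and without it the ranges were 1.27 times for Cxcr6 and 1.28 times for Ccr9. Against Cd3e alone, a chain of the T cell receptor complex, they were 1.30 and 1.32 times. The narrow range was not confined to T cell markers. Against 13 summed B cell markers the ranges were 1.59 times for Cxcr6 and 2.07 times for Ccr9. Blnk, which is among these 13, ran only from 1190 to 2156 CPM, while their sum ran from 2211 to 11609 CPM. Ratios to the B cell sum, here and below, thus rest in part on a marker that varied little. Against 5 summed epithelial markers the ranges of Cxcr6 and Ccr9 were 15.5 and 19.2 times. These ratios were formed after the levels had been seen and carry no test.

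Ccr6, Itga4 and the ligands did not share this narrow range. Ccr6 per 1000 CPM of T cell markers was 3.25 to 3.92 CPM in control and 3.7 to 4.47 CPM in transfer libraries, but 7.89, 2.59 and 5.95 CPM in the antibiotic replicates. Per 1000 CPM of 13 summed B cell markers it ran from 18.1 to 51.8 CPM, with both ends in the antibiotic group. Itga4 per 1000 CPM of T cell markers was 1.11, 2.73 and 5.52 CPM in the control replicates, 6.03, 5.62 and 4.39 CPM in the antibiotic replicates, and 3, 3 and 3.7 CPM in the transfer replicates. The antibiotic libraries lay above the transfer libraries in that ratio, and control replicate 3 lay among the antibiotic libraries. Per 1000 CPM of the B cell markers, Itga4 overlapped between them, at 28.7 to 39.6 CPM in antibiotic and 24.5 to 29.8 CPM in transfer libraries. The share of all genes that separate in such ratios was not counted. Ccl20 per 1000 CPM of T cell markers ranged over 8.84 times and Ccl25 over 22.5 times, with the highest Ccl25 ratio in control replicate 3. Per 1000 CPM of 5 summed epithelial markers, Ccl20 was 0.37 to 0.54 CPM in control, 0.86 to 2.16 CPM in antibiotic and 0.62 to 1.02 CPM in transfer libraries. In that ratio antibiotic and transfer libraries overlapped and control libraries lay below both, unlike in the levels. The epithelial sum itself was 72914 to 88104 CPM in control and 57746 to 70145 CPM in antibiotic libraries. In the transfer replicates that sum was 38169, 77529 and 44242 CPM, so the divisor moved as well as Ccl20. The share of all genes that separate in this ratio was not counted either. Ccl25 per epithelial marker overlapped between all groups.

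**Figure D3:**
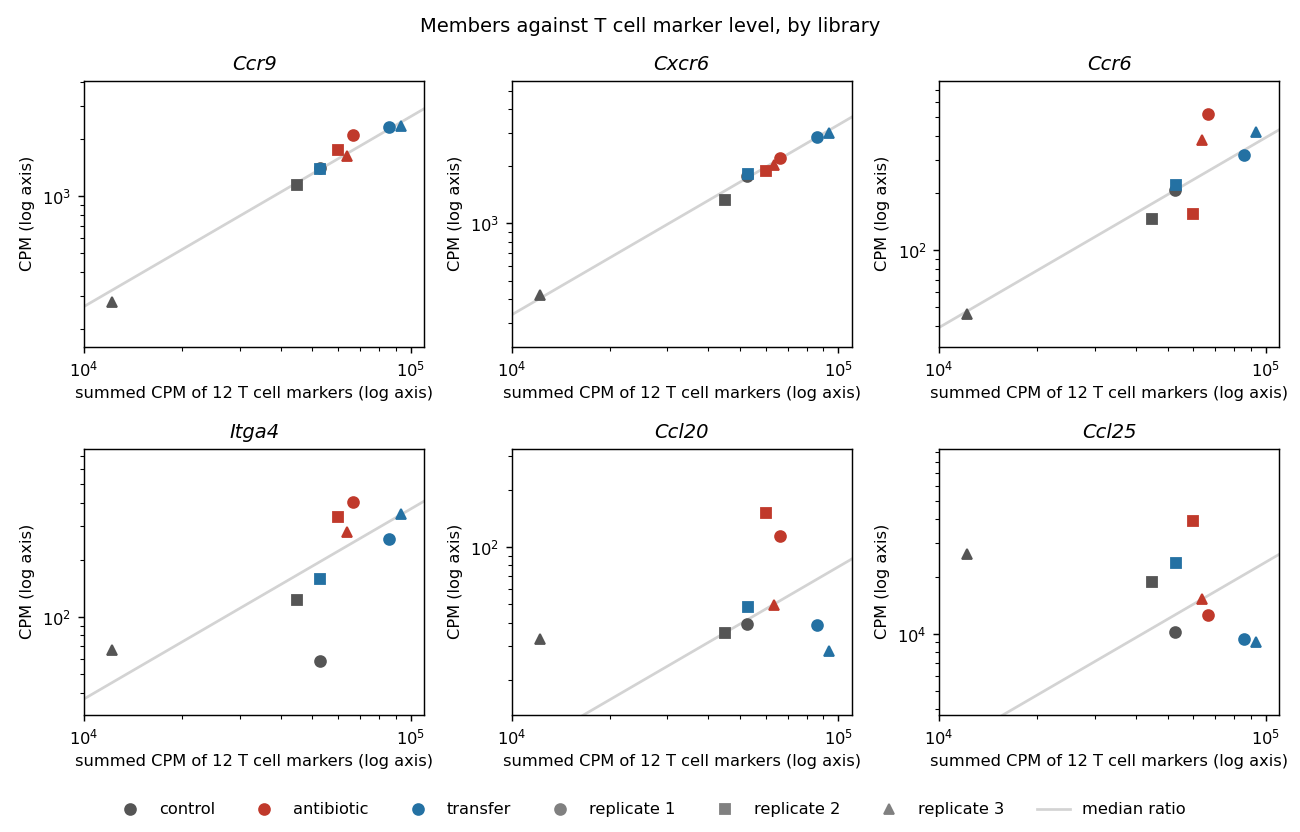
Level of 6 members (vertical log axis, CPM) against the summed CPM of 12 T cell markers (horizontal log axis) in the 9 libraries, coloured by group, with a grey line at the median ratio. Cxcr6 and Ccr9 follow the line in all 9 libraries including control replicate 3, while Itga4 and Ccl20 scatter around it. Ccl25 does not follow the line and is lowest in transfer replicates 1 and 3, where the T cell sum is highest.

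The summed levels of other marker lists are given by their range in each group, without a test. Like the T cell sum, B cell and follicle sums in control libraries lay below those of both treated groups. Dendritic cell and macrophage sums in control libraries lay above those of both treated groups, while type 3, cytotoxic and epithelial sums overlapped between some groups. Their part in the receptor values was not tested. The 13 B cell markers summed to 2211 to 6303 CPM in control, 8574 to 10111 CPM in antibiotic and 6476 to 11609 CPM in transfer libraries, with 11 to 13 of them above the limit. The 11 dendritic cell and macrophage markers summed to 1162 to 1221 CPM in control, 695 to 862 CPM in antibiotic and 663 to 982 CPM in transfer libraries, with 4 to 9 above the limit and Cd163 above it in 0 libraries. The 7 lymphoid follicle markers summed to 440.3 to 678 CPM in control, 857.5 to 984 CPM in antibiotic and 827 to 902 CPM in transfer libraries, with 4 to 7 above the limit. The 8 markers of type 3 innate and Th17 cells, which carry CCR6, summed to 906 to 1339 CPM in control, 1302 to 2053 CPM in antibiotic and 1095 to 1383 CPM in transfer libraries, with 3 to 6 above the limit and Il17a in 0. The 13 cytotoxic lymphocyte markers summed to 31066 to 101157 CPM in control, 91104 to 118437 CPM in antibiotic and 95192 to 137030.1 CPM in transfer libraries, with 9 to 12 above the limit and Tbx21 in 0. The 5 epithelial markers summed to 72914 to 88104 CPM in control, 57746 to 70145 CPM in antibiotic and 38169 to 77529 CPM in transfer libraries, with 3 or 4 above the limit and Muc1 in 0.

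Over all 9 libraries, neither ligand and receptor pair passed the threshold. Ccl20 and Ccr6 had a Pearson r of 0.20 (exact permutation p = 0.595) and a Spearman rho of 0.22 (exact permutation p = 0.581) over the 9 libraries. Ccl25 and Ccr9 had an r of -0.49 (exact permutation p = 0.170, or 0.339 adjusted over the 2 pairs) and a rho of -0.67 (exact permutation p = 0.0589, or 0.118 adjusted). Without the 2 libraries farthest from the median of the ligand, r was 0.26 for Ccl20 and Ccr6 (exact permutation p = 0.589) and -0.73 for Ccl25 and Ccr9 (exact permutation p = 0.0726). Without antibiotic replicate 2 alone, Ccl25 and Ccr9 had an r of -0.77, which passed (adjusted exact permutation p = 0.00833). All tests were two-sided. As deviations from the group means, the values were -0.30 and -0.62, and with spike-in scaling they were 0.87 and 0.62, where the 11.8-fold spread of the spike-in totals enters both genes.

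Correlations between members are given as a description over 9 libraries that share their depth and scaling. Ccr9 and Cxcr6 had a Pearson r of 0.99, and 0.95 without control replicate 3. Ccr6 had 0.90 with Ccr9 and 0.91 with Cxcr6, which were 0.73 and 0.74 without that library, and Itga4 had 0.72 with Ccr9. Ccr10, close to background, had 0.25 with Ccr6, -0.03 with Ccr9 and 0.02 with Cxcr6, below the 0.46 between the ligands Ccl20 and Ccl25.

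The panel genes with the pattern most like each member were taken as the 3 with the highest Pearson r over the 9 libraries. For Ccr9 they were Cd48 (r = 0.999), Arhgdib (0.996) and Il2rg, the common cytokine receptor gamma chain (0.995). For Cxcr6 they were Arhgdib (0.995), Hcst, the adaptor of NKG2D (0.991), and Il2rg (0.991). For Ccr6 they were Tagap (0.984), Csf2, which encodes GM-CSF (0.964), and Cr2, which binds complement fragments on B cells (0.961). For Itga4 they were Tcf4 (0.927), the co-stimulatory receptor Cd28 (0.925) and the phosphatase Ptpn22 (0.921). The ligands had other neighbours, namely the fatty acid receptor Cd36 (0.917), the protease Ctsc (0.859) and Tnfsf15 (0.835) for Ccl20, and Ctnnb1, which encodes beta-catenin (0.937), and Tnfrsf11a, which encodes RANK (0.915), for Ccl25. For Ccr10 they were Ifna1 (0.918), Lif (0.823) and Kir3dl2 (0.816). Ccr10 had 4 to 42 counts and exceeded the limit in only 6 libraries, so shared background may enter its values. Without control replicate 3 the values moved in both directions. Ccr6 with Cr2 then had 0.895 and Cxcr6 with Hcst 0.960, while Ccr10 with Lif had 0.941.

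The direction of the member values depended on what the libraries were scaled to. Spike-in totals ran from 2994 to 35248 and were highest in 2 antibiotic libraries, and this scaling shifted the median log2 fold change over the whole panel by -1.95 for antibiotic against control and by 2.05 for transfer against antibiotic. Housekeeping scaling shifted it by 0.28 and 0.09, and by 0.38 for transfer against control. With spike-in scaling 6 of 7 members lay below 0 for antibiotic against control, from -0.75 for Ccr6 to -1.71 for Ccl25, and only Itga4 did not. All 7 lay above the median of all genes with spike-in scaling, which was -1.92. For transfer against control spike-in scaling turned no member, and scaling to the housekeeping genes turned no member in either comparison against control.

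**Figure D4:**
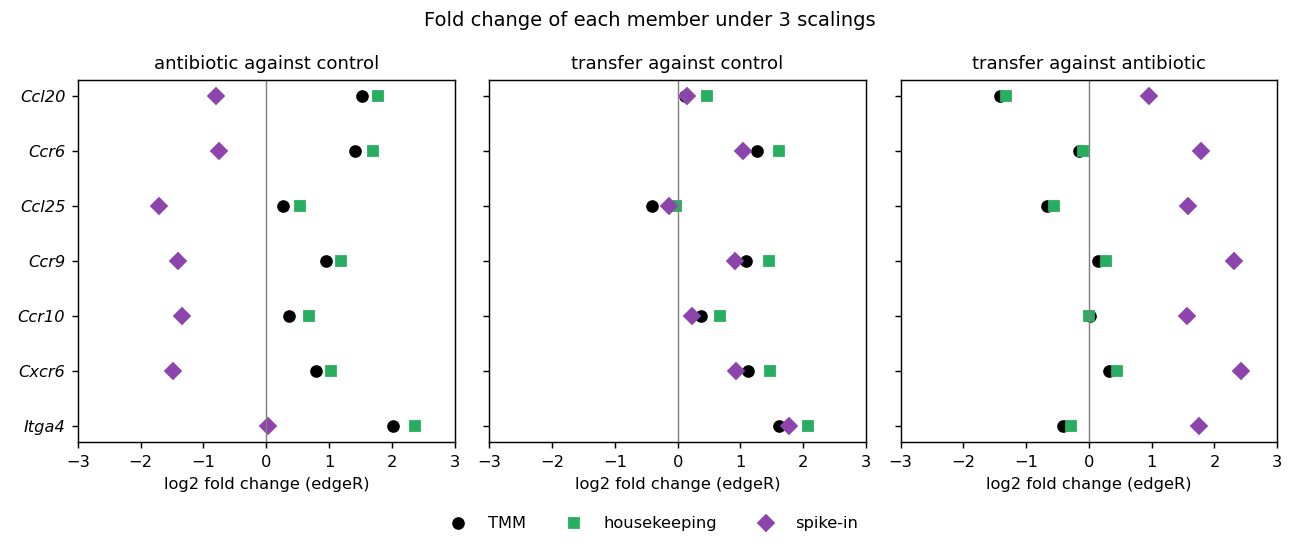
Log2 fold change (horizontal axis) of the 7 members in the 3 comparisons with TMM, housekeeping and spike-in scaling in edgeR. Spike-in values lie to the left of 0 for 6 of 7 members for antibiotic against control and to the right for all 7 for transfer against antibiotic, while housekeeping values lie nearer to the TMM values than spike-in values do for antibiotic against control.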

How the data were processed

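RNA was hybridised to a probe panel read on the nCounter platform. Per the file headers, each deposited library file gives raw whole-number counts of 547 endogenous and 14 housekeeping genes, with 8 negative and 6 positive controls. The counting software is not given in the sources used here. A deposited table of normalised signal equals the counts times 1 factor per library, 0.734 to 1.82, found from the values to be inverse to the housekeeping mean.

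Here edgeR 4.0.16 (glmQLFit, glmQLFTest, TMM) was fitted on the counts of 470 genes in all 9 libraries, with no covariates, 6 residual degrees of freedom and Benjamini-Hochberg adjustment over the 470 genes at 0.05. It was tested on counts simulated from its own estimates of the spread, with no outlying library. That setting is simpler than these data and does not address why methods differ in their calls. Kept genes exceeded the negative-control mean plus 2 SD, 7.74 to 17.7 counts, in at least 3 libraries. Standard errors are those implied by the test. Exact permutation of 3 against 3 libraries cannot go under 0.10 and was not used for levels. The members, gene lists and tests were chosen with earlier results of these data known. All 7 members are named with every value; partners, the 3 list genes with the smallest p in each comparison against control, and the 3 genes of most similar pattern (log2 CPM, prior count 2) followed fixed rules, and 2 genes these rules select are not reported here. Probe accessions of all 7 matched RefSeq genes on GRCm38.p6, and 6 had an upstream sequence. Replicates of a group correlated at 0.888 to 0.98 in log2 CPM. They differed by a chi-square of at least 6.75 per degree of freedom, more than counting noise alone gives. This cannot tell separate mice from separate preparations of 1 mouse or from repeated runs of the same RNA. All libraries are marked batch 1. Alternatives were DESeq2 1.42.0, limma 3.58.1 with voom, other scalings and filters, fits of 2 groups only, a replicate block, limma on log2(value + 1) of the deposited signal, and leaving out each library.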

Additional observations from a re-analysis of the deposited data

How the results depend on the processing

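For antibiotic against control DESeq2 called 51 genes, limma-voom 5, upper-quartile scaling 12 and spike-in scaling 2, against 0 in edgeR with TMM. Among them were 2 members with DESeq2 (Ccl20, Itga4) and 1 each (Itga4) with limma-voom and upper-quartile scaling. For transfer against control DESeq2 called 40 genes and 1 member, Itga4. With 1 library left out, edgeR called 0 to 23 genes for antibiotic against control (23 without control replicate 1, 9 without control replicate 3, 1 without antibiotic replicate 3) and 0 to 2 for transfer against control (1 without control replicate 1, 2 without control replicate 3). At an unadjusted p under 0.05 edgeR counted 102, 105 and 12 genes in the 3 comparisons. No member was called with any library left out.

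Spike-in scaling turned 6 members for antibiotic against control (Ccl20 -0.80, Ccr6 -0.75, Ccl25 -1.71, Ccr9 -1.41, Ccr10 -1.34, Cxcr6 -1.49) and 4 for transfer against antibiotic (Ccl20 0.96, Ccr6 1.78, Ccl25 1.57, Itga4 1.76). Values near 0 also turned, namely Ccl25 with upper-quartile scaling (-0.035) for antibiotic against control, Ccl20 with upper-quartile scaling (-0.0056) for transfer against control, and for transfer against antibiotic Ccr10 with limma-voom (-0.052) and housekeeping scaling (-0.0018) and Ccr6 with the deposited signal (0.13). Over libraries left out, values that turned ranged from -0.41 to 0.56 for Ccl25 and -0.11 to 0.65 for Ccr10 (antibiotic against control), -0.094 to 0.22 for Ccl20 and -0.27 to 0.62 for Ccr10 (transfer against control), and -1.27 to 0.011 for Ccl25, -0.63 to 0.49 for Ccr10, -0.50 to 0.24 for Ccr6 and -0.022 to 0.35 for Ccr9 (transfer against antibiotic). The causes were not tested.

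Members with groups not overlapping, counted under settings chosen after the data were seen, numbered 1 for antibiotic against control with spike-in scaling (Ccl25, lower, as were 21.3% of all genes) and 0 for transfer against control. For transfer against antibiotic 5 were higher, as were 74.3% of all genes. With housekeeping scaling 3 members (Ccl20, Ccr9 and Itga4) were higher for antibiotic against control, as were 21.3% of all genes. For transfer against control 1 member, Itga4, was higher with that scaling, as were 17.2% of all genes. For transfer against antibiotic Ccl20 alone was lower, as were 3.4% of all genes. The r of Ccl20 with Ccr6 was 0.87 with spike-in scaling (adjusted exact permutation p = 0.00604), -0.30 as deviations from group means, and -0.048 to 0.49 with 1 library left out. The r of Ccl25 with Ccr9 was 0.62 with spike-in scaling and -0.77 to -0.42 with 1 library left out, lowest without antibiotic replicate 2, where it passed (adjusted exact permutation p = 0.00833). Libraries of the same number did not deviate together (correlations of -0.488 to 0.337), so the numbers are not shown to pair the samples, and with the replicate block 0 genes and 0 members were called in each comparison, with Itga4 at 2.03 for antibiotic against control. Ccl20 and Ccr10 rest on counts of 4 to 59.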
